A study of Mus musculus with 6 samples.

Results

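The genes described here are 41 genes of homologous recombination, of the Fanconi anemia pathway and of the signalling that follows a broken chromosome. The list was drawn up from gene symbols by known role, with earlier results of these data already known, and all 41 were found among the 29955 genes of the deposited table. RNA had been sequenced from 3 cultures of Rnf40+/+ mouse embryonic fibroblasts (MEFs, connective tissue cells grown from mouse embryos) and 3 cultures of Rnf40-/- MEFs, all at passage 3. The Rnf40-/- cells carried Rnf40 alleles with loxP sites around exons 3 and 4 and a tamoxifen-inducible Cre (CreERT2) in the ubiquitously active Rosa26 locus, and were grown for 5 days in 250 nM 4-hydroxytamoxifen (4-OHT) and for 3 days without it. The study describes its MEFs as grown from embryos with CreERT2 and homozygous loxP alleles, and 4-OHT as the step that deletes Rnf40. It describes no 4-OHT treatment of the Rnf40+/+ cultures, so the effects of the deletion and of 4-OHT with active Cre cannot be told apart. The sources used here do not say whether the 3 cultures of a genotype came from separate embryos, so the p values measure only the spread between these libraries.

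RNF40 forms with RNF20 the ubiquitin ligase that attaches a single ubiquitin to histone H2B, a mark of transcribed genes that also forms at broken DNA. In homologous recombination the ends of a break are first cut back to single strands, BRCA1, PALB2 and BRCA2 then prepare these strands for pairing, and the missing sequence is copied from the sister chromatid. The Fanconi proteins recognise crosslinks between the DNA strands and hand them to the same machinery, while the kinases ATM and ATR signal the damage and hold the cell cycle. As a sister chromatid exists only in S and G2 phase, many of these genes are known to be transcribed mostly in dividing cells.

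The libraries held between 17053436 and 26344170 reads on genes, and the ranges of both genotypes overlapped. Rnf40 itself had 1278, 1195 and 1096 normalized counts (reads divided by the size factor of the library) in Rnf40+/+ and 439, 519 and 487 in Rnf40-/- libraries, counted over the whole gene and not over the deleted exons alone. Rnf40+/+ replicate 3 stood apart from its group, with a chi-square per gene of 28.3 and 25.6 against replicates 1 and 2, which differed from each other by 7.85, while libraries of different genotypes differed by at least 74.7. The 14 fibroblast markers examined all had enough reads to be tested, with a summed level from 730415 to 807002 normalized counts in Rnf40+/+ and from 446405 to 448584 in Rnf40-/- libraries, and 12 of them fell, most of all Col1a2 and Thy1 (log2 fold changes -2.26 and -1.87) and least Vim and Twist1 (-0.26 and -0.23). The call of Vim was lost without any single library other than Rnf40+/+ replicate 3 (limma, adjusted p from 0.0526 to 0.179) and under 4 other alternatives, and that of Twist1 without Rnf40-/- replicate 1 or 3 (limma, adjusted p = 0.0584 and 0.0871). Among all genes tested, 24.1% were called lower and 23.3% higher (limma, adjusted p under 0.05). Other cell types had far lower sums. These ranged from 5941 to 10274 and from 3852 to 4318 for 10 macrophage markers in Rnf40+/+ and Rnf40-/- libraries, from 149 to 285 and from 249.8 to 346 for 8 endothelial markers, and from 459.8 to 812 and from 599.6 to 838 for 8 epithelial markers. The macrophage markers were highest in Rnf40+/+ replicate 3, where Lyz2 had 7440 normalized counts against 3945 and 4557 in replicates 1 and 2, Tyrobp 343 against 173 and 178, and Cd68 427 against 159 and 189. No listed marker was at 0 in every library. Among the macrophage markers 3 fell (most of all Tyrobp and Lyz2, log2 fold changes -1.71 and -1.18) and 2 rose (Ptprc and Cd14, 1.37 and 0.66). Among the endothelial markers Emcn fell (-1.15) and 3 rose, most of all Cdh5 and Pecam1, which were near the detection limit in Rnf40+/+ libraries with means of 2.76 and 3.75 normalized counts and had 31.6 and 27.6 in Rnf40-/- libraries. Of the epithelial markers Cldn4 was called, with means of 6.10 and 19.7 normalized counts. Krt19, the most abundant of them, had 349.9, 420.1 and 737 normalized counts in Rnf40+/+ and 516, 768 and 737 in Rnf40-/- libraries and was not called (limma, adjusted p = 0.107), but was called higher without Rnf40+/+ replicate 3 (limma, adjusted p = 0.00056), without Rnf40-/- replicate 1 (limma, adjusted p = 0.0467) and with a replicate block. The part of these markers' cells in the results was not tested.

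Of the 41 genes, all of which had enough reads to be tested, 27 were lower in Rnf40-/- MEFs and 1 was higher with an adjusted p under 0.05 (limma on log2(normalized count + 1), Benjamini-Hochberg adjustment over all 16378 genes tested). Over all genes tested, 24.1% were lower, 23.3% higher and 47.4% either of them by the same rule. Their median log2 fold change lay at -0.56, while that of all genes tested was close to 0. Relative to the Rnf40+/+ mean, the median log2 difference of the 41 genes was -0.55, -0.49 and -0.68 in Rnf40-/- replicates 1, 2 and 3 and 0.09, -0.05 and -0.04 in the Rnf40+/+ replicates. In 28 of the genes every Rnf40-/- library lay below every Rnf40+/+ library, in 1 gene every one lay above, and in 12 the genotypes overlapped, whereas 28.7% of all genes tested were apart in the lower and 27.8% in the upper direction. The study asked for a mean above 15, a p under 0.05 and a log2 fold change beyond 1 in either direction. Applied here to the unadjusted p of limma, these thresholds called 14 of the 41 genes lower and none higher. Among all genes tested they called 5.7% lower, 4.25% higher and 9.95% in either direction. These need not be the study's own calls. Without Rnf40+/+ replicate 3, 27 of the 41 genes were lower and 0 higher, with a median log2 fold change of -0.66. The fall was not even across the pathway. In 14 genes less than 50% of the Rnf40+/+ mean was left, in 4 of them (Rad51c, Exo1, Clspn and Fancd2) less than 20%, and others stayed within the spread between replicates.

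**Figure D1:**
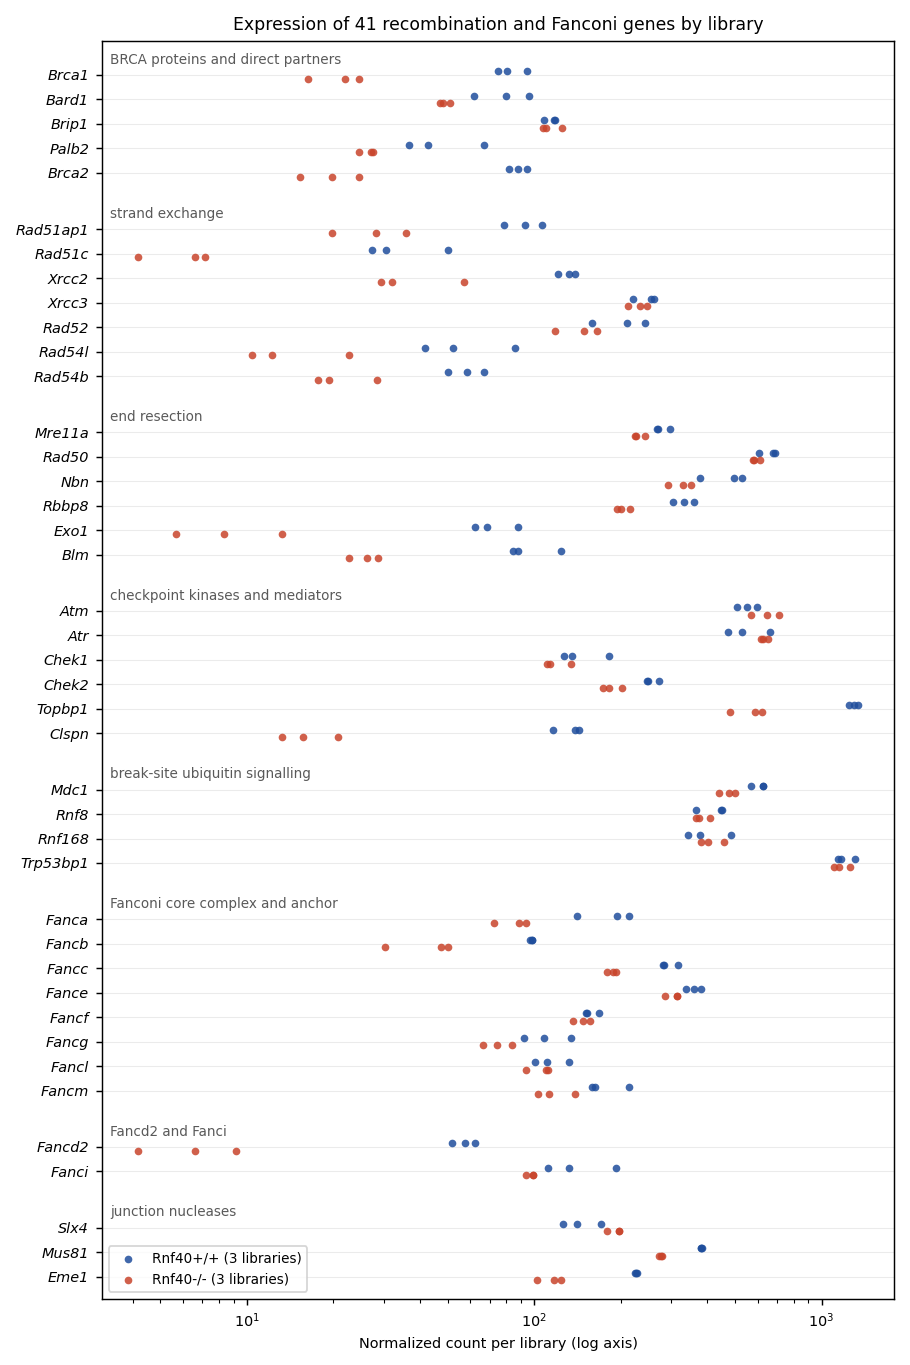
Normalized counts (log axis) of the 41 genes in the 3 Rnf40+/+ (blue) and the 3 Rnf40-/- (red) libraries, 1 point per library, grouped by role. In 28 genes all red points lie to the left of the blue ones, in 12 genes the colors overlap, and for Slx4 all red points lie to the right.

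Among the BRCA proteins and their direct partners, 4 of 5 genes fell. The counts of this and the following groups stand beside 24.1% lower among all genes tested. BRCA1 is the ubiquitin ligase that favours recombination over end joining. Brca1 (ENSMUSG00000017146, positions 101350078 to 101413269 on chromosome 11 in mm9, minus strand) had 94.3, 80.6 and 75.1 normalized counts in Rnf40+/+ and 16.3, 21.9 and 24.5 in Rnf40-/- libraries. All Rnf40-/- values were far below the lowest Rnf40+/+ value, and 25.1% of the mean was left (log2 fold change -1.96, standard error 0.25, adjusted p = 4.81e-05 from limma). BRCA2 acts on the single-stranded DNA of a resected break. Brca2 (ENSMUSG00000041147, chromosome 5, 151325205 to 151372321, plus strand) had 94.3, 87.7 and 81.5 normalized counts in Rnf40+/+ and 15.3, 19.8 and 24.5 in Rnf40-/- libraries, with no overlap. It fell by 2.11 on the log2 scale (standard error 0.25, adjusted p = 2.71e-05 from limma). BARD1 is the obligate partner of BRCA1, and PALB2 links BRCA1 to BRCA2. Bard1 had 80.0, 95.9 and 61.5 normalized counts in Rnf40+/+ and 51.0, 47.0 and 48.2 in Rnf40-/- libraries. Palb2 had 66.9, 42.8 and 36.7 in Rnf40+/+ and 24.5, 27.1 and 27.4 in Rnf40-/- libraries. For both genes the genotypes were apart by a narrow margin, with log2 fold changes of -0.67 for Bard1 (adjusted p = 0.0223 from limma) and -0.82 for Palb2 (adjusted p = 0.0289 from limma). These calls depended on single libraries. The adjusted p of Bard1 was 0.0978 when Rnf40+/+ replicate 2 was left out, 0.062 for Rnf40-/- replicate 2 and 0.0568 for Rnf40-/- replicate 3, and in each of these cases 2 of the 5 genes were called. That of Palb2 was between 0.0504 and 0.122 without Rnf40+/+ replicate 1 or 2 or without any of the Rnf40-/- libraries. BRIP1, the helicase that binds BRCA1 and is itself a Fanconi protein, did not pass the threshold. Brip1 (ENSMUSG00000034329, chromosome 11, 85871638 to 86014695, minus strand) had 118, 108 and 117 normalized counts in Rnf40+/+ and 125, 107 and 109.5 in Rnf40-/- libraries, so the genotypes overlapped throughout (log2 fold change -0.01, standard error 0.15, adjusted p = 0.973 from limma).

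Of the 7 genes of strand exchange, 6 fell. The median log2 fold change, -1.72, was the lowest of the groups with more than 2 genes. RAD51C belongs to a family of related proteins that act in the pairing of strands. Rad51c (ENSMUSG00000007646, chromosome 11, 87190147 to 87218456, minus strand) had 50.2, 30.6 and 27.2 normalized counts in Rnf40+/+ and 7.14, 4.17 and 6.61 in Rnf40-/- libraries. These Rnf40-/- values rest on 7, 4 and 7 reads, close to the detection limit of 3 reads, and the log2 fold change was -2.38 with a pseudocount of 1 (standard error 0.39, adjusted p = 0.000368 from limma) and -1.50 with a pseudocount of 10. XRCC2 and XRCC3 belong to the same family. Xrcc2 had 133, 121 and 138 normalized counts in Rnf40+/+ and 57.1, 29.2 and 32.1 in Rnf40-/- libraries, a fall without overlap (log2 fold change -1.76, standard error 0.25, adjusted p = 0.00011 from limma). Xrcc3 had 254, 220.3 and 262 in Rnf40+/+ and 212, 247 and 234 in Rnf40-/- libraries, so that its genotypes overlapped (log2 fold change -0.09, standard error 0.12, adjusted p = 0.587 from limma). RAD51AP1 stimulates strand invasion. Rad51ap1 had 106, 78.5 and 92.6 normalized counts in Rnf40+/+ and 35.7, 28.2 and 19.8 in Rnf40-/- libraries (log2 fold change -1.72, standard error 0.25, adjusted p = 0.000169 from limma). RAD54L and its relative RAD54B are motor proteins that move along DNA and promote the pairing of strands. Rad54l had 86.0, 52.0 and 41.5 normalized counts in Rnf40+/+ and 12.2, 10.4 and 22.7 in Rnf40-/- libraries. Rad54b had 66.9, 49.97 and 58.3 in Rnf40+/+ and 19.4, 17.7 and 28.3 in Rnf40-/- libraries. Both were apart between genotypes and fell, to 25.3% of the Rnf40+/+ mean for Rad54l (adjusted p = 0.000967 from limma) and to 37.4% for Rad54b (adjusted p = 0.00114 from limma). RAD52 anneals single strands. Rad52 had 244, 211 and 159 normalized counts in Rnf40+/+ and 149, 166 and 118 in Rnf40-/- libraries, and was the only called gene whose genotypes overlapped (log2 fold change -0.49, adjusted p = 0.0399 from limma). Its adjusted p rose to between 0.072 and 0.161 without Rnf40+/+ replicate 1 or 2 or Rnf40-/- replicate 1 or 3.

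Of the 6 genes of end resection 4 fell, and the largest changes were those of the enzymes that extend the single strand. The MRN complex detects and first trims the ends, and consists of the nuclease MRE11, the ATPase RAD50 and NBN. Mre11a had 269, 268 and 297 normalized counts in Rnf40+/+ and 224, 242 and 226 in Rnf40-/- libraries, and Rad50 had 607, 675 and 688 against 612, 578 and 583. Neither passed the threshold, with log2 fold changes of -0.27 for Mre11a (standard error 0.11, adjusted p = 0.0594 from limma) and -0.15 for Rad50 (standard error 0.08, adjusted p = 0.159 from limma), although the genotypes did not overlap for Mre11a. Nbn had 496, 528 and 377 normalized counts in Rnf40+/+ and 351, 329.8 and 293 in Rnf40-/- libraries and fell by 0.51 in log2 units (adjusted p = 0.0065 from limma). CtIP, the product of Rbbp8, starts resection together with MRN. Rbbp8 had 332, 361 and 305 normalized counts in Rnf40+/+ and 194, 216 and 200.2 in Rnf40-/- libraries, so that 61.1% of the mean was left (log2 fold change -0.71, adjusted p = 0.000288 from limma). EXO1 and the helicase BLM carry resection over long distances, and BLM also resolves joined chromatids. Exo1 (ENSMUSG00000039748, chromosome 1, 177810909 to 177841527, plus strand) had 62.1, 87.7 and 68.7 normalized counts in Rnf40+/+ and 13.3, 8.35 and 5.67 in Rnf40-/- libraries. The remaining 12.5% of the mean rests on 13, 8 and 6 reads (log2 fold change -2.93, standard error 0.34, adjusted p = 2.42e-05 from limma, and -2.12 with a pseudocount of 10). Blm had 124, 84.6 and 87.8 normalized counts in Rnf40+/+ and 28.6, 26.1 and 22.7 in Rnf40-/- libraries, far apart from each other (log2 fold change -1.88, standard error 0.23, adjusted p = 4.15e-05 from limma).

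Of the 6 genes of damage signalling 3 fell, namely the adaptors Topbp1 and Clspn and the kinase Chek2. ATM responds to broken ends and ATR to single-stranded DNA. Atm had 598, 552 and 506 normalized counts in Rnf40+/+ and 643, 713 and 568 in Rnf40-/- libraries. Atr had 664, 530.3 and 471 in Rnf40+/+ and 623, 651 and 615 in Rnf40-/- libraries. Both had slightly higher means in Rnf40-/- MEFs with overlapping genotypes and did not pass the threshold (log2 fold change 0.21 for Atm, adjusted p = 0.105, and 0.20 for Atr, adjusted p = 0.181, from limma). Without Rnf40-/- replicate 3 the adjusted p of Atm was 0.0448, and without Rnf40+/+ replicate 1 that of Atr was 0.0122. CHEK2 and CHEK1 are the kinases downstream of ATM and ATR. Chek2 had 246, 249.8 and 272 normalized counts in Rnf40+/+ and 182, 202 and 174 in Rnf40-/- libraries and fell by 0.46 in log2 units (adjusted p = 0.00669 from limma). Chek1 had 183, 126 and 135 in Rnf40+/+ and 113, 135 and 110.5 in Rnf40-/- libraries, with an overlap between the genotypes (log2 fold change -0.29, standard error 0.17, adjusted p = 0.181 from limma). TOPBP1 switches ATR on, and claspin brings CHEK1 to ATR. Topbp1 (ENSMUSG00000032555, chromosome 9, 103207545 to 103252762, plus strand) had 1250.4, 1343 and 1295 normalized counts in Rnf40+/+ and 585, 619 and 479 in Rnf40-/- libraries. It fell by 1.21 on the log2 scale (standard error 0.10, adjusted p = 1.28e-06 from limma), the lowest adjusted p of the 41 genes. Clspn (ENSMUSG00000042489, chromosome 4, 126234179 to 126271147, plus strand) had 143, 116 and 139 normalized counts in Rnf40+/+ and 13.3, 15.7 and 20.8 in Rnf40-/- libraries. Of its mean 12.5% was left and the genotypes lay far apart (log2 fold change -2.95, standard error 0.24, adjusted p = 1.51e-06 from limma).

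Of the 4 genes of ubiquitin signalling at break sites 1 fell, a share near the 24.1% lower among all genes tested. RNF8 and RNF168 are, like RNF40, ubiquitin ligases that act at histones. MDC1 binds the phosphorylated histone H2A.X and recruits RNF8. Mdc1 passed the threshold, with 623, 626 and 569 normalized counts in Rnf40+/+ and 499, 476 and 439 in Rnf40-/- libraries (log2 fold change -0.36, standard error 0.09, adjusted p = 0.00484 from limma). Rnf8 had 447, 366 and 450.4 in Rnf40+/+ and 374, 364 and 409.8 in Rnf40-/- libraries. Rnf168 had 342, 483 and 377 against 459, 379.9 and 403. The genotypes of both overlapped, and their log2 fold changes were -0.13 for Rnf8 (standard error 0.11, adjusted p = 0.335 from limma) and 0.06 for Rnf168 (standard error 0.13, adjusted p = 0.74 from limma). The protein 53BP1, which reads the ubiquitin mark and protects ends from resection, is encoded by Trp53bp1. Trp53bp1 had 1305, 1137 and 1169.9 normalized counts in Rnf40+/+ and 1152, 1259 and 1102 in Rnf40-/- libraries, values that overlap widely (log2 fold change -0.04, standard error 0.08, adjusted p = 0.709 from limma).

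Of the 8 genes of the Fanconi core complex and its anchor, 5 fell. The core complex is the ubiquitin ligase of the pathway, in which FANCL is the catalytic subunit and FANCB its direct partner, while FANCM anchors the complex on DNA. Fanca and Fancb had the largest changes. Fanca (ENSMUSG00000032815, chromosome 8, 125792200 to 125842476, minus strand) had 193, 214 and 141 normalized counts in Rnf40+/+ and 93.8, 88.7 and 72.7 in Rnf40-/- libraries (log2 fold change -1.08, adjusted p = 0.000467 from limma). Fancb (ENSMUSG00000047757, chromosome X, 161418524 to 161435204, plus strand) had 97.9, 96.9 and 98.2 in Rnf40+/+ and 49.96, 30.3 and 47.2 in Rnf40-/- libraries (log2 fold change -1.21, adjusted p = 0.000818 from limma). In both genes less than 50% of the mean was left and the genotypes were apart. Fancc had 281, 283 and 315 normalized counts in Rnf40+/+ and 188, 193 and 178 in Rnf40-/- libraries (log2 fold change -0.65, adjusted p = 0.000505 from limma). Fancg had 134, 91.8 and 108 in Rnf40+/+ and 74.4, 83.5 and 66.1 in Rnf40-/- libraries, and Fancm had 159, 214 and 163 against 103, 139 and 112. Neither gene overlapped between the genotypes, but both fell less than Fanca and Fancb, by 0.56 for Fancg (adjusted p = 0.0294 from limma) and by 0.59 for Fancm (adjusted p = 0.0121 from limma). The adjusted p of Fancg was 0.107 when Rnf40+/+ replicate 1 was left out, 0.0697 for Rnf40-/- replicate 1 and 0.101 for Rnf40-/- replicate 3, and that of Fancm was 0.0637 without Rnf40+/+ replicate 2 and 0.0553 without Rnf40-/- replicate 1. Without Rnf40-/- replicate 1, 3 of the 8 genes were called. Fancl, the catalytic subunit, had 133, 101 and 111 normalized counts in Rnf40+/+ and 93.8, 112 and 109.5 in Rnf40-/- libraries, with overlap (log2 fold change -0.12, standard error 0.17, adjusted p = 0.568 from limma). Fancf overlapped as well, at 152, 153 and 168 against 137, 148 and 156 (log2 fold change -0.10, standard error 0.13, adjusted p = 0.553 from limma). Fance was apart but small, at 359, 339 and 379 against 286, 315 and 313 (log2 fold change -0.24, standard error 0.10, adjusted p = 0.0701 from limma).

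FANCD2 and FANCI form the clamp that the core complex ubiquitinates. Fancd2 (ENSMUSG00000034023, chromosome 6, 113481676 to 113547011, plus strand) had 57.3, 62.2 and 51.9 normalized counts in Rnf40+/+ and 9.18, 4.17 and 6.61 in Rnf40-/- libraries. With 11.6% of the mean left, resting on 9, 4 and 7 reads, it had the lowest remaining share of the 41 genes (log2 fold change -2.98, standard error 0.34, adjusted p = 2.57e-05 from limma, and -2.02 with a pseudocount of 10). Fanci had 192, 133 and 112 normalized counts in Rnf40+/+ and 98.9, 99.1 and 93.5 in Rnf40-/- libraries. It fell by 0.54 in log2 units (adjusted p = 0.037 from limma), but its adjusted p was between 0.0667 and 0.149 when Rnf40+/+ replicate 1 or 2 or any of the Rnf40-/- libraries was left out, and its log2 fold change was -0.32 without Rnf40+/+ replicate 1. Among the nucleases that cut joined DNA molecules, MUS81 is the catalytic subunit, EME1 its partner and SLX4 the scaffold that holds several nucleases. Mus81 had 382, 380.4 and 380.1 normalized counts in Rnf40+/+ and 276, 278 and 272 in Rnf40-/- libraries, with a narrow spread in either genotype and no overlap (log2 fold change -0.47, adjusted p = 0.0014 from limma). Eme1 (ENSMUSG00000039055, chromosome 11, 94506310 to 94515278, minus strand) had 228, 224 and 227 in Rnf40+/+ and 124, 102 and 117 in Rnf40-/- libraries, so that 50.6% of the mean was left (log2 fold change -0.98, adjusted p = 8.2e-05 from limma). Slx4 (ENSMUSG00000039738, chromosome 16, 3979105 to 4003770, minus strand) was the only gene of the 41 that was called higher. Its values were 171, 125 and 141 normalized counts in Rnf40+/+ and 197, 197 and 178 in Rnf40-/- libraries (log2 fold change 0.40, standard error 0.15, adjusted p = 0.0396 from limma). This call was lost without any single library other than Rnf40+/+ replicate 1 (adjusted p from 0.0581 to 0.138 from limma), with the Wald test of DESeq2 (adjusted p = 0.0646) and when all genes with a read were tested (adjusted p = 0.0526 from limma).

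**Figure D2:**
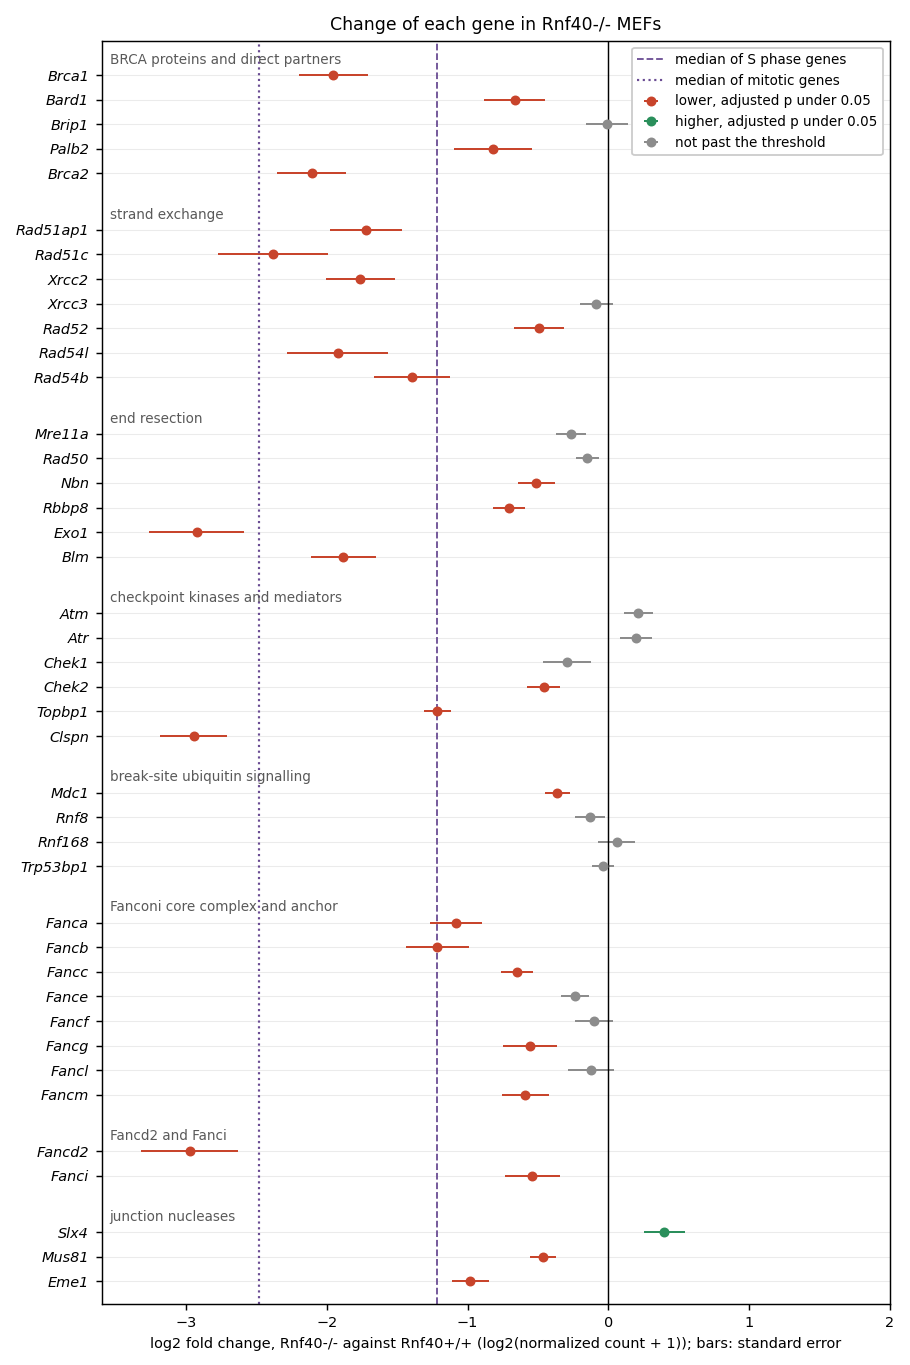
Log2 fold change of each gene in Rnf40-/- against Rnf40+/+ MEFs with its standard error from limma (3 libraries per genotype), grouped by role and colored by the call at an adjusted p of 0.05. The 27 lower genes spread from -0.36 to -2.98, and the vertical lines mark the medians of the S phase (-1.22) and mitotic genes (-2.48).

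In 13 of the 41 genes an exon overlaps an exon of another annotated gene, mostly on the opposite strand. Among them are Fancd2, Fanci, Rad54l, Eme1, Rnf8 and Trp53bp1. The library kit kept the strand, but whether the counting used it is not given in the sources used here, and reads of such gene pairs may not be told apart. Rnf8 also shares exonic bases with Ftsjd2 on the same strand, where the strand would not separate the reads. Per kilobase of the longest coding transcript, Topbp1 had the highest level of the 41 genes in Rnf40+/+ MEFs with 248 normalized counts, and Brca2 the lowest with 8.19. Rnf8, which shares exonic bases with neighbours on both strands, came next to Topbp1 with 203, followed by Nbn and Mus81 with 184 each. At the lower end lay Rad51c with 9.12, Fancd2 with 10.4 and Brca1 with 12.7. In Rnf40-/- MEFs the order changed, with Rnf8 highest at 184 and Topbp1 at 107, and Fancd2 lowest at 1.21 normalized counts per kilobase.

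Several of these proteins work as pairs, and 12 pairs were compared within each library by the log2 ratio of their genes (normalized counts + 1). As the pairs were chosen with the changes of their genes known, the ratios are given as a description, without a test. The genotypes did not overlap in 8 of the 12 pairs. Of single genes, 28.7% and 27.8% were apart in the lower and upper direction, and the share among other pairs of genes was not determined. The ratio of Fancd2 to Fanci was -1.30 ± 0.37 in Rnf40+/+ and -3.73 ± 0.50 in Rnf40-/- libraries (log2, SD, n = 3 each), a difference of -2.43 that was -1.51 with a pseudocount of 10. For Brca1 to Bard1 it was 0.09 ± 0.29 and -1.20 ± 0.34, for Brca1 to Brip1 -0.46 ± 0.16 and -2.41 ± 0.40, and for Brca2 to Palb2 0.88 ± 0.34 and -0.41 ± 0.25 (log2, SD, n = 3 each). In each of these pairs the ratio was lower in every Rnf40-/- library than in any Rnf40+/+ library. The ratio of Rad51c to Xrcc3, which form a complex, moved from -2.78 ± 0.45 to -5.08 ± 0.45 (log2, SD, n = 3 each), a difference of -2.30 that was -1.41 with a pseudocount of 10. Both of these rest on the few reads of Fancd2 and Rad51c in Rnf40-/- libraries. Smaller shifts without overlap were seen for Eme1 to Mus81 (-0.51), Chek1 to Atr (-0.49) and Chek2 to Atm (-0.67). The ratios overlapped for Rad50 to Mre11a (difference 0.12), Rad50 to Nbn (0.36), Rnf168 to Rnf8 (0.19) and Rad54l to Rad54b (-0.53). With 1 library left out these differences ranged from 0.072 to 0.17, from 0.26 to 0.54, from 0.038 to 0.43 and from -0.76 to -0.34.

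**Figure D3:**
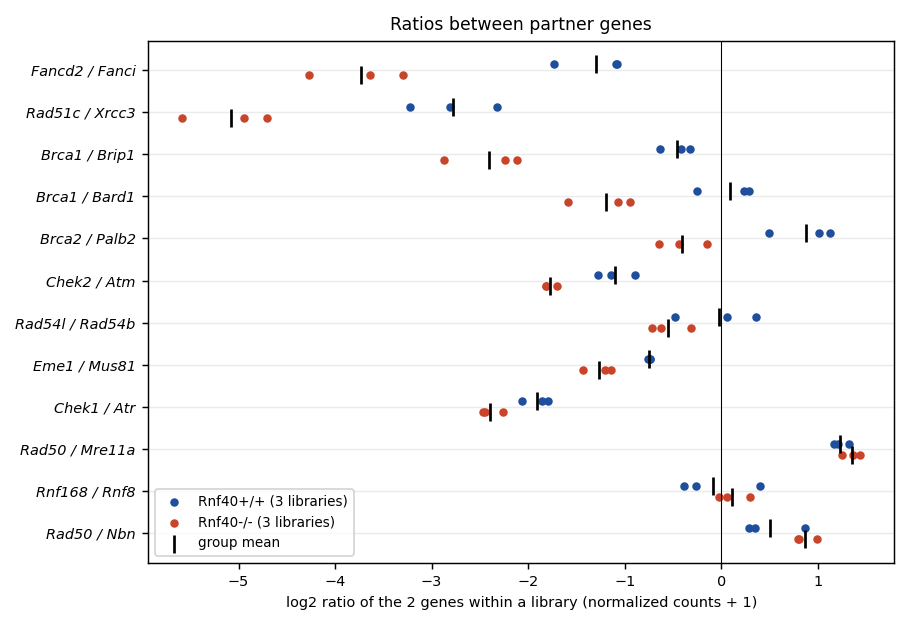
Log2 ratio of the normalized counts of 2 partner genes within each library, for 12 pairs, with the 3 Rnf40+/+ libraries in blue, the 3 Rnf40-/- libraries in red and bars at the group means. The colors do not overlap in 8 pairs, and the difference of Fancd2 to Fanci, -2.43, is the largest with the pseudocount of 1 shown (with 10 it is -1.51, and that of Brca1 to Brip1 -1.59).

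The same pathways hold many further genes, and 58 of these were examined, 57 of them with enough reads. Of the 57, 21 were lower and 9 higher with an adjusted p under 0.05 from limma, with a median log2 fold change of -0.19. Among all genes tested 24.1% were lower and 23.3% higher. Ube2t, the ubiquitin-conjugating enzyme that serves FANCL, fell by 1.93 in log2 units (adjusted p = 0.000157 from limma), from 73.8 ± 15.9 to 18.8 ± 5.79 normalized counts (SD, n = 3 each). Usp1, the enzyme that removes ubiquitin from FANCD2, fell by 0.72 (adjusted p = 8.54e-05 from limma), from 576 ± 47.3 to 348 ± 23.7 normalized counts. H2afx, which encodes histone H2A.X, fell by 0.79 (adjusted p = 6.31e-05 from limma), from 918 ± 118 to 528 ± 37.6. Fignl1, which encodes an ATPase of recombination, had the largest fall of this list, from 120.4 ± 12.8 to 26.7 ± 10.2 (log2 fold change -2.19, adjusted p = 3.69e-05 from limma). The largest rises were those of Rad51b (listed in the table as Rad51l1), a further member of the family of Rad51c and Xrcc2, from 26.5 ± 1.91 to 60.7 ± 10.4 normalized counts (log2 fold change 1.15, adjusted p = 0.00193 from limma), and of Rmi2 (listed as A630055G03Rik), a partner of BLM, from 83.3 ± 8.94 to 135 ± 7.15 (log2 fold change 0.69, adjusted p = 0.00333 from limma). This family thus included genes that fell (Rad51c and Xrcc2) and a gene that rose (Rad51b).

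End joining is the other main way to mend a broken chromosome. Of 16 end-joining genes, 6 were lower and 2 higher, against 24.1% and 23.3% of all genes tested. The median log2 fold change of the list was -0.24. Without Rnf40-/- replicate 1 the count of lower genes was 3, and without Rnf40-/- replicate 2 that of higher genes was 1. Polq, which encodes the polymerase of the microhomology-mediated branch, fell most, from 69.3 ± 17.4 to 22.9 ± 9.28 normalized counts (SD, n = 3 each, log2 fold change -1.62, adjusted p = 0.0019 from limma), and Tdp2 fell by 0.61 (adjusted p = 0.005 from limma). Dclre1c, which encodes the nuclease Artemis, rose from 249.3 ± 16.8 to 332 ± 27.6 normalized counts (log2 fold change 0.41, adjusted p = 0.00887 from limma). Lig4, the ligase of this pathway, rose by 0.35 (limma, adjusted p = 0.0139), a call that was lost when Rnf40-/- replicate 2 was left out (limma, adjusted p = 0.0648).

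Genes of S phase and of mitosis moved with the 41 genes. Of 33 S phase genes that are not among the 41, 29 were lower and none higher (adjusted p under 0.05 from limma). Their median log2 fold change was -1.22. All 32 mitotic genes examined were lower by the same rule, with a median of -2.48. Among all genes tested 24.1% were lower and 23.3% higher. Per Rnf40-/- replicate, the S phase median lay -1.28, -1.27 and -1.17 and the mitotic median -2.26, -2.49 and -2.66 from the Rnf40+/+ mean in log2 units. Per Rnf40+/+ replicate, the S phase median lay 0.12, -0.08 and -0.05 and the mitotic median 0.10, -0.10 and -0.03 from it. Rnf40+/+ replicate 1 thus had the highest level of both lists and of the 41 genes within its genotype. Mcm3 and Uhrf1 fell most among the S phase genes, with log2 fold changes of -2.51 and -2.39, and Pcna and Rrm2 least among those called, with -0.38 and -0.28. Among the mitotic genes, Kif2c and Ccnb2 fell most, with log2 fold changes of -3.41 and -3.32, and Hmmr and Cenpf least, with -1.24 and -1.06. Of the 41 genes, 11 fell more than the S phase median (Fancd2, Clspn, Exo1, Rad51c, Brca2, Brca1, Rad54l, Blm, Xrcc2, Rad51ap1 and Rad54b). Of these, 3 (Fancd2, Clspn and Exo1) fell more than the mitotic median. These ranks hold for the pseudocount of 1. With a pseudocount of 10 the log2 fold changes of Fancd2, Clspn and Exo1 were -2.02, -2.43 and -2.12. The S phase and mitotic medians were not determined with that pseudocount. In RNA from whole cultures, fewer cells in S and G2 phase and less RNA of these genes per cell cannot be told apart, and the part of cell division in the fall of the 41 genes was not tested.

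**Figure D4:**
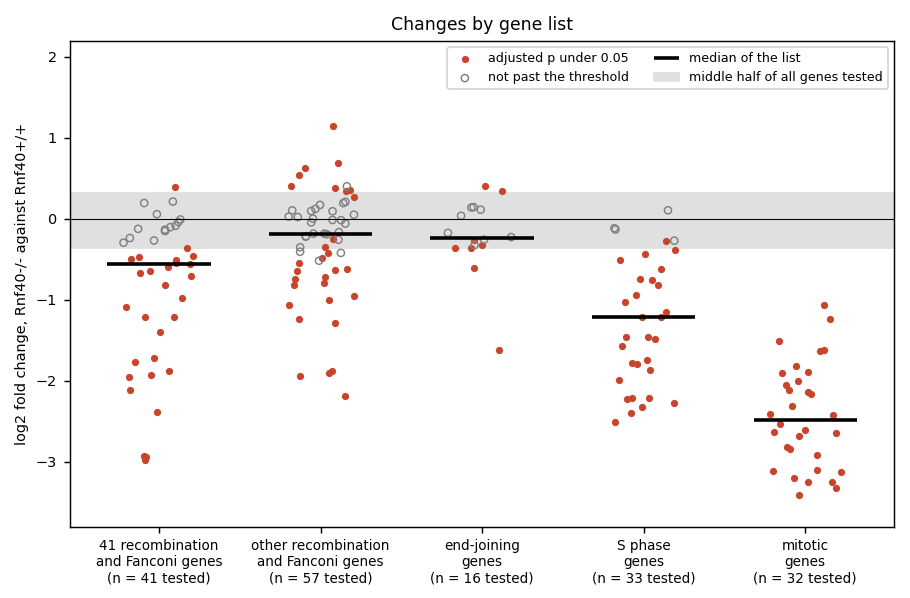
Log2 fold change of each gene tested, by list, with filled points for an adjusted p under 0.05 from limma, black bars at the list medians and a grey band from the lower to the upper quartile of all 16378 genes tested. The medians are -0.56, -0.19, -0.24, -1.22 and -2.48 from left to right.

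Letters in the promoters of the 41 genes were examined as a description. Binding of any factor to them, and its part in the changes, was not tested. Promoters (250 bases before and 50 after the start of transcription) of 34 of the 41 genes were matched in RefSeq (GRCm38.p6) by symbol, without Xrcc2, Rad54b, Rad50, Nbn, Rbbp8, Exo1 and Fancd2. Searched on both strands were the letters of the site of E2F factors, which switch on genes of S phase (TTTCCCGC, TTTCGCGC, TTTGCCGC or TTTGGCGC), and those of the CHR element, known from genes of G2 phase and mitosis (TTTGAA or TTCGAA). E2F letters were present in 8 of the 21 matched genes that fell and in none of the 12 that were not called. They were absent from Slx4 too, but the stretch matched for it (chr16:4001679-4001928) may not be its promoter. It ended short of the end of this minus-strand gene in mm9 (4003770). Of all 27025 genes with a promoter, tested here or not, 2.60% held E2F letters. CHR letters were present in 2 of the 21, in 2 of the 12 and in 21.7% of all genes with a promoter. The windows around the E2F letters of the 8 genes are printed below, each along the strand on which the letters read as above and with these letters in capitals. In Bard1, Fancg and Mdc1 and at 1 of the Rad51c starts this is the strand of the gene, and in the others it is the opposite one.
Bard1 (chr1:71103163-71103192, minus strand): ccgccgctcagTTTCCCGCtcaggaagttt
Brca2 (chr5:150522442-150522471, minus strand): gtgtgtgtctgTTTCCCGCtgtggcctaaa
Chek2 (chr5:110839820-110839849, minus strand): cgacgtcttggTTTCCCGCggctaatcccg
Fancg (chr4:43010335-43010364, minus strand): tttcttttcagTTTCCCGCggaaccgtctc
Mdc1 (chr17:35841471-35841500, plus strand): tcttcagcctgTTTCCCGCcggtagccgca
Rad51c (chr11:87404941-87404970, plus strand): gaccccttgctTTTCCCGCcctcgcggggg
Rad51c, other start (chr11:87404477-87404506, minus strand): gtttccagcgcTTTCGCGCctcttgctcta
Topbp1 (chr9:103305187-103305216, minus strand): cgggaaccgacTTTCGCGCcaaccgagcgg
Clspn (chr4:126556990-126557019, minus strand): gaagttcgagcTTTCGCGCccagacgcggt

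All windows hold TTTCCCGC or TTTCGCGC. The first letter on the strand of the gene lay 209 bases before the start in Bard1, 168 in Brca2, 152 in Chek2, 129 in Topbp1, 52 in Fancg and 16 in Mdc1, while those of Clspn and of the other Rad51c start began 22 and 12 bases after it. At the remaining Rad51c start they began 5 bases before it and ran across it. With the search limited to the bases before the start, 6 of the 8 genes remained. The genes with the letters had log2 fold changes from -0.36 (Mdc1) to -2.95 (Clspn), so their falls differed widely, and Brca1 and Blm, with log2 fold changes of -1.96 and -1.88, had no such letters in this window. The 250 bases before the start of Brca2, Topbp1 and Brip1 are printed along the strand of the gene as examples of a gene of low level that fell, a gene of high level that fell and a gene whose genotypes overlapped. The letters above or their reverse complement are in capitals, and Brip1 has none.
Brca2 (chr5:150522371-150522620, plus strand): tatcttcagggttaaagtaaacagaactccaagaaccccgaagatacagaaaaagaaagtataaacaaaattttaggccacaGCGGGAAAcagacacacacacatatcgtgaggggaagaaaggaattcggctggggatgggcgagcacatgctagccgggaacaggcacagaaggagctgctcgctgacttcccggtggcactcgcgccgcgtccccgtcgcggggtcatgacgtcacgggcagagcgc
Topbp1 (chr9:103305077-103305326, plus strand): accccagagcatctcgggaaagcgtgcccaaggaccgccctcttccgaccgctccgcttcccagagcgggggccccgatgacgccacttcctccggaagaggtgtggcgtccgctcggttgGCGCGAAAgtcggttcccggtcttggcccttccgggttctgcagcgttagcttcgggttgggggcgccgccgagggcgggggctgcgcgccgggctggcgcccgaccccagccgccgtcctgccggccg
Brip1 (chr11:86201194-86201443, minus strand): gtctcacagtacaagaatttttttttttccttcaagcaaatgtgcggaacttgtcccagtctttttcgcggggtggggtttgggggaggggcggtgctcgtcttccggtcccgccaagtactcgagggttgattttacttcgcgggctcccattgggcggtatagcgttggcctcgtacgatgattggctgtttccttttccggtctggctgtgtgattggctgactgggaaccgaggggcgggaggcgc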

How the data were processed

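The study made strand-specific RNA-seq libraries from total RNA of 3 Rnf40+/+ and 3 Rnf40-/- MEF cultures. Reads had been aligned by the authors to mouse transcripts of mm9 and scaled with DESeq, and the submitters' processing notes name Bowtie2 (version 2.1.0) and DESeq (version 1.14.0). The counting tool is not given in the sources used here. The values deposited by the authors (a signal, here called normalized count) are reads divided by 1 size factor per library. Multiplied back, 100% of the positive values came out as whole reads (tolerance 0.01 reads). The alternatives that need counts used these recovered reads.

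filterByExpr of edgeR (version 4.0.16), run on these reads, left 16378 genes. They were tested with limma (version 3.58.1, lmFit and eBayes with an intensity trend) for the difference between genotypes on log2(normalized count + 1), with Benjamini-Hochberg adjustment over all of them. The added 1 understates changes of low genes. No libraries of a genotype were duplicates (chi-square per gene from 5.31 to 28.3). A level of 3 reads, taken as the detection limit, corresponds to 2.40 to 3.58 normalized counts. Positions, exon overlaps and transcript lengths come from an annotation of mm9, promoters from RefSeq (GRCm38.p6).

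Alternatives were TMM and upper-quartile normalization, other gene filters and pseudocounts, a replicate block, each library left out, the quasi-likelihood test of edgeR and the Wald test of DESeq2 (version 1.42.0). In simulated data of 16378 genes, limma called 190 of 200 changed genes and also 18 unchanged genes. The changed genes were drawn only from genes above a minimum mean read count and were given changes of fixed size. The share called need not hold for genes with fewer reads or for smaller changes. The genes, their roles, the other lists and the pairs were chosen with earlier results of these data known. All 41 genes are reported. Of each other list the genes named are the 2 lowest and the 2 highest log2 fold changes among those called, besides Usp1, Ube2t and H2afx. Among the cell markers Krt19 and Cd68 are named as well, outside this rule. A further gene is not reported here. R (version 4.3.3) and Python (version 3.11.15) with scipy (version 1.17.1) were used.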

Additional observations from a re-analysis of the deposited data

How the results depend on the processing

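Of the 27 genes called lower, 21 were called without each library and under every alternative that tested them. The exceptions were Bard1, Palb2, Rad52, Fancg, Fancm and Fanci. Of the 21, Rad51c, Exo1 and Fancd2 were not tested in the alternative that asked for at least 10 reads in every library. The lower count was 22 to 27 with 1 library left out and at least 24 otherwise. The cause of the changes that follow was not tested, except where fewer genes entered. The single higher call (Slx4, also the only one of the nucleases) became 0 with DESeq2 and 0 with all genes that had a read. With 1 library left out the higher count was 0 to 2 for the 41 genes, 0 to 1 for the nucleases and 0 to 1 for the checkpoint genes. In the same way the median of the 41 genes ranged from -0.66 to -0.49, that of the BRCA group from -0.999 to -0.65 (called lower 2 to 4), of end resection from -0.71 to -0.53 and of the break-site genes from -0.15 to -0.068. The Fanconi core had 3 to 5 lower genes, Fancd2 with Fanci 1 to 2, and the end-joining list 3 to 5 lower and 1 to 3 higher. The log2 fold changes of Brip1 (-0.077 to 0.034, with 0.016, 0.010 and 0.020 in between), Rnf168 (-0.049 to 0.20, with -0.018) and Trp53bp1 (-0.093 to 0.020, with 0.0028) turned in sign and were never called. With a pseudocount of 10 the medians were -0.66 for the BRCA group, -1.45 for strand exchange and -1.26 for Fancd2 with Fanci, and the differences of the log2 ratios were -1.59 for Brca1 to Brip1, -1.51 for Fancd2 to Fanci and -1.41 for Rad51c to Xrcc3. With at least 10 reads in every library, which leaves out Rad51c, Exo1 and Fancd2, the end resection median was -0.51, and Fanci alone stood for its pair (1 lower, -0.54). With all genes that had a read, 1 of this pair was lower. A replicate block changed no count of the 41 genes (27 lower, 1 higher). Deviations of libraries of the same number correlated from 0.0118 to 0.0212, and those of other pairs from -0.0531 to 0.0371. With 3 libraries per genotype these values cannot show whether the numbers pair the cultures. Depth limits the values of Rad51c, Exo1 and Fancd2, with under 10 reads in a library.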

Other observations

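The called genes of the 41 were not spread evenly over expression levels. Of the 15 genes with a mean below 100 normalized counts over the 6 libraries, among them Brca1, Brca2, Rad54b and Fancd2, all 15 were called lower by limma (adjusted p under 0.05 over all genes), and their median log2 fold change was -1.88. Between 100 and 300 normalized counts, 8 of 15 were lower and 1, Slx4, was higher, with a median of -0.46. Above 300, 4 of 11 were lower (Nbn, Mdc1, Topbp1 and Mus81), with a median of -0.15. Among all genes tested the share of lower genes was 13.3% below 100, 28.0% between 100 and 300 and 28.9% above 300 normalized counts. The mean used for this division includes the Rnf40-/- libraries, so a gene that fell is itself moved towards the lowest class.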
